A study of Rattus norvegicus with 6 samples.

Results

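The 43 genes described here encode receptors for serotonin, dopamine, noradrenaline and adrenaline, acetylcholine, opioid peptides, cannabinoids, adenosine, neuropeptide Y (NPY) and somatostatin. They were taken by gene symbol from a list of 43 symbols, all of which were named by at least 1 probe set of the array whose annotation gives exactly 1 gene, out of 14506 genes named that way. A gene with more than 1 probe set was represented by the one with the highest mean (log2) across the 6 arrays. The cells were cortical neurons isolated from Sprague-Dawley rat embryos of day 18 and cultured in NB-N2 medium for 3 days. There were 6 arrays, 3 of neurons left untreated and 3 of neurons exposed for 3 h to C1q at 10 nM. C1q is the recognition protein of the classical complement pathway. Arrays are numbered 1 to 3 within a group, and nothing in the labels ties the numbers to separate cultures or embryos. The p-values therefore reflect only how these arrays vary, which may be technical. The series title links C1q to neuroprotection, and the comparison asks whether the neurons' receptor transcripts differed after this short exposure.

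Most of these receptors are seven-transmembrane proteins that act through G proteins. Gi/o proteins hold back adenylyl cyclase and open GIRK potassium channels, Gs proteins stimulate adenylyl cyclase, and Gq proteins activate phospholipase C. The 5-HT3A subunit and the nicotinic acetylcholine receptor subunits are instead parts of ion channels opened by their ligand. In cortex, most of the monoamines and acetylcholine arrive on axons from neurons outside the cortex, while NPY and somatostatin are made by cortical interneurons.

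No receptor gene was called as changed after C1q, with 0 of 43 past an adjusted p under 0.05 in the limma fit over all 29215 probe sets, of which 0.00342% were called (1 lower, 0 higher). At an unadjusted p under 0.05 there was 1 receptor gene with a higher mean, Adrb1, and none with a lower one. Of all probe sets 0.852% and 2.01% lay in these directions, 2.86% together. Of the 14506 genes 61 and 120 did, a smaller share. Untreated and C1q arrays were fully separated for 1 receptor gene with a higher mean, Adrb1, and 1 with a lower mean, Adora2a. Of all probe sets 7.06% were separated in either direction. Of the 14506 genes 241 were separated with C1q higher and 677 with C1q lower. Every one of the 43 genes had a 95% interval of its fold change within 1.5-fold in either direction, as did 94.9% of all probe sets. Within 1.2-fold lay the intervals of 20 of the 43, against 42.9% of all probe sets. Of the 14506 genes named by a single-gene probe set, 14256 had intervals within 1.5-fold and 7854 within 1.2-fold. The share of receptor genes within 1.2-fold was thus above that of all probe sets and below that of all genes. The widest downward bound was 0.713 for Htr1f and the highest upward bound was 1.27 for Adrb1. Fold changes are on the scale of log2(intensity + 16), which understates the change of dim genes, and where a signal is mostly background an interval does not bound the change of the transcript.

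**Figure D1:**
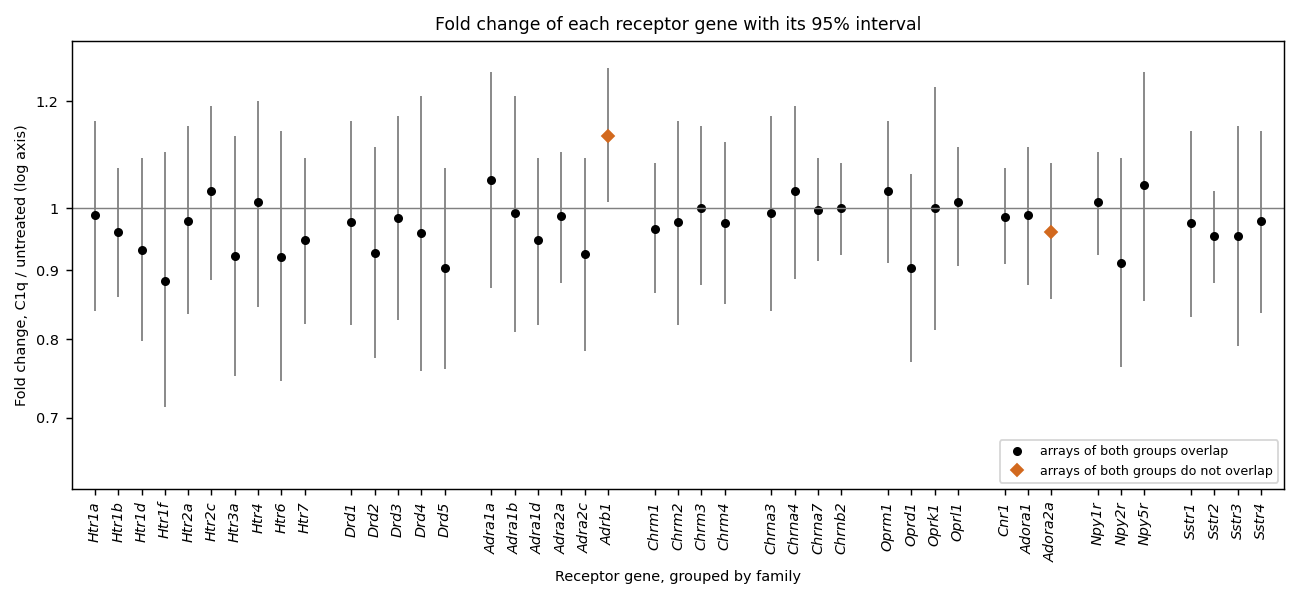
Fold change of each of the 43 receptor genes, C1q over untreated (log axis), with the 95% interval of the limma fit, grouped by family. Points lie between 0.884 for Htr1f and 1.13 for Adrb1, and diamonds mark Adrb1 and Adora2a, the genes whose arrays did not overlap between groups.

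Means were higher after C1q for 12 receptor genes and lower for 31 (72.1%), and the median of their log2 fold changes was -0.03. Over all 14506 genes 62.4% of means were lower and the median was -0.02. These splits depended on the scaling. Quantile normalization gave 22 higher and 21 lower receptor genes, and median centring gave 20 and 23. Over all genes the same rescalings gave 7501 higher and 7005 lower, and 8022 and 6484. The median intensity of the 43 genes was 148, 137 and 141 on the untreated arrays, in the order of their numbers, and 128, 135 and 139 on the C1q arrays, so the groups overlapped.

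Promoter sequences of GRCr8 from RefSeq, covering 250 bases before to 50 after the annotated start, were found for 34 of the 43 genes. Whether transcription begins at the annotated start was not tested, so a window called a promoter here may not be one. In the Htr1f and Drd1 windows the letters just before the start, a pyrimidine-rich run followed by ag, read like the end of an intron. In the Npy2r and Adra2a windows the letters from the start on begin with atg, as a coding sequence does. Such windows were kept in the counts and GC contents below. The promoters of Adrb1 and Htr1f are shown because these genes had the highest and lowest fold changes in the fit described here, and that of Sstr2 because it was the only member promoter with a full cyclic AMP response element, the site bound by CREB. Capitals mark the letters searched on both strands, TGACGTCA for the cyclic AMP response element, GGGCGG for the GC box and TATAAA for the TATA box.
Adrb1 promoter, GRCr8 chr1:265776853-265777152, plus strand: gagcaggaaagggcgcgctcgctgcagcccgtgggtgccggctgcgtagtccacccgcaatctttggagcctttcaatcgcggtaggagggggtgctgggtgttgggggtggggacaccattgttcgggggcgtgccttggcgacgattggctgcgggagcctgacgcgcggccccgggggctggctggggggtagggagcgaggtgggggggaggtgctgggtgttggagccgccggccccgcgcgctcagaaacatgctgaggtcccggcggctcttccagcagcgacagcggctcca
Sstr2 promoter, GRCr8 chr10:99163103-99163402, plus strand: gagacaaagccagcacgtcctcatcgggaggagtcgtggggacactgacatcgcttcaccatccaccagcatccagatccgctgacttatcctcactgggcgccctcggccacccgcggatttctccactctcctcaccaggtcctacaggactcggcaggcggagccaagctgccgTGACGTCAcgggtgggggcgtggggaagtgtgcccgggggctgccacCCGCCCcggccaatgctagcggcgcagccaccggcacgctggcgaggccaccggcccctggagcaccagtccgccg
Htr1f promoter, GRCr8 chr11:16090616-16090915, minus strand: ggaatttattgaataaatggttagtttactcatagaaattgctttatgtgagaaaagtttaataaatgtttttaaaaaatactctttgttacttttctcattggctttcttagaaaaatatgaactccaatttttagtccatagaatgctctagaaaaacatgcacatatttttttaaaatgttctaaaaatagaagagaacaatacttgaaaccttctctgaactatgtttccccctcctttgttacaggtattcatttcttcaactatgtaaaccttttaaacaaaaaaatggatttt
The cyclic AMP response element was present in 1 of 34 member promoters, or 2.94%, against 1.83% of all 33469 promoters of this length. GC boxes were present in 16 of 34, or 47.1%, against 33.1% of all promoters. No member promoter held the TATA box letters, which 14.2% of all promoters held. The median GC content was 64.8% in member promoters, from 26.3% in Htr1f to 79.7% in Htr7, against 51.7% over all promoters. The Adrb1 and Htr1f windows held none of these motifs. No peak, methylation or binding measurement was analysed here, so these matches describe letters only.

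Intensities in untreated neurons ran from 23.9 for Npy5r to 2479 for Cnr1. Probe sets bind their targets with unequal strength, so these intensities, and the bands and boundaries set on them below, sort probe sets by brightness and give no order of transcript level among genes. No detection call was used. As a rough yardstick, 32 genes restricted to other organs, such as liver, pancreas and testis, had a median intensity of 67.5 in untreated neurons and a 90th percentile of 173. Of these 32, Prm1, a protamine gene of sperm, read 1277, so a high intensity on its own does not show a transcript. Of the 43 receptor genes, 7 read at or below that median, 18 between it and the 90th percentile and 18 above the 90th percentile. Those 7 were Htr1a, Htr1f, Drd3, Adra1a, Adra1b, Oprk1 and Npy5r. The brightest 60% of all probe sets began at an intensity of 94.4 and held 29 of the 43 genes, or 67.4%, against 66.5% of all genes. That boundary is on the mean log2 value of all 6 arrays. On that scale Htr4 and Sstr3 lay just inside it, at intensities of 110 and 111, and Htr1d and Sstr4 just outside, at 90.7 and 90.5.

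**Figure D2:**
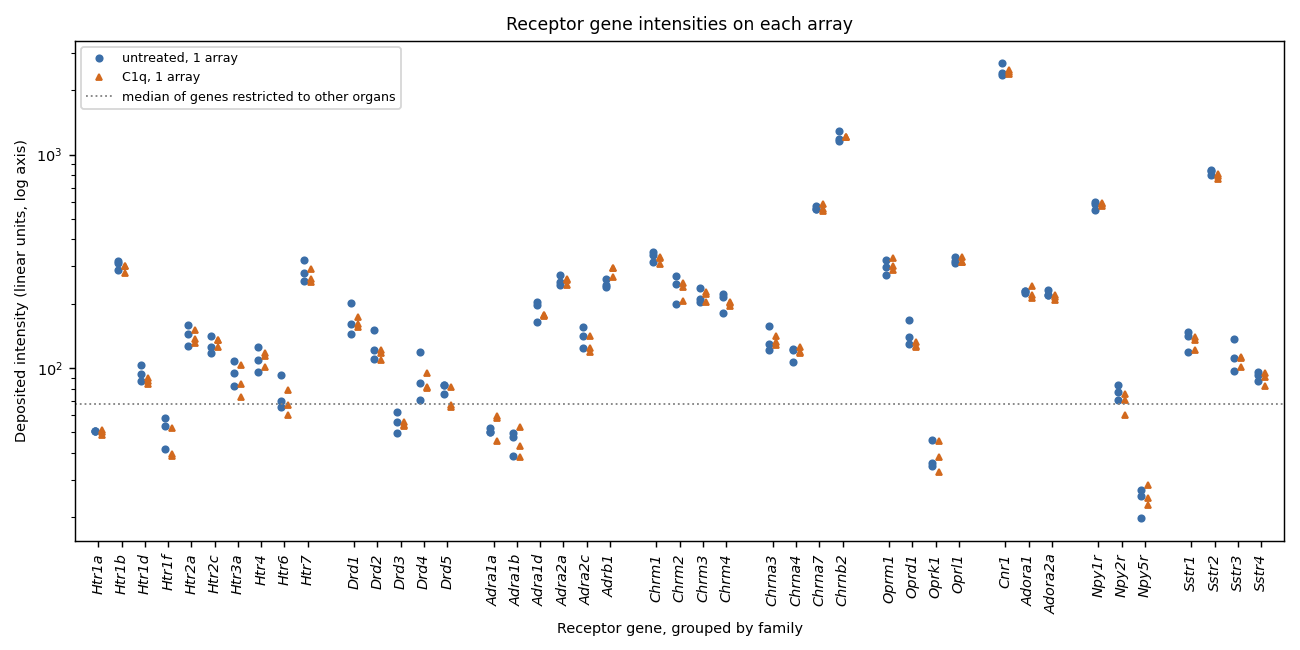
Deposited intensity (log axis) of the 43 receptor genes on each of 3 untreated arrays (circles) and 3 C1q arrays (triangles), grouped by family, with a dotted line at 67.5, the median of genes restricted to other organs. For 41 of the 43 genes the arrays of both groups overlap, and 7 genes lie below the line on every array.

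Markers of the labelled cell type read well above the median of genes restricted to other organs. Neuronal markers ran from 484 for Nefl to 8601 for Dcx, the doublecortin of immature neurons, with 10 of 10 in the brightest 60%. Excitatory markers included Neurod6 at 6028 and Slc17a7 at 772, and inhibitory markers included Gad1 at 1836 and Sst at 5112. Glial markers were also measured, from 51.7 for Gfap to 606 for Slc1a2 among 8 astrocyte genes and from 72.0 for Cspg4 to 268 for Mbp among 6 oligodendrocyte lineage genes. All 8 microglial markers lay outside the brightest 60%, at 32.6 to 83.9. The summed intensity of the astrocyte markers was 2017 to 2192 on untreated and 2095 to 2163 on C1q arrays, and that of the microglial markers 426 to 489 and 461 to 479. Which cells carried a receptor transcript was not measured, and fewer cells of a type cannot be told apart from less RNA per cell. Array medians were 147 to 155, and arrays correlated at 0.991 to 0.996 on the log2 scale across probe sets.

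Among the 10 serotonin receptor genes, 2 means were higher and 8 lower after C1q. Quantile normalization gave 4 higher and 6 lower, and median centring 3 and 7. Htr1b, a Gi/o-coupled receptor that sits on axon terminals and holds back transmitter release, read 310, 288 and 318 on the untreated arrays and 300, 278 and 300 on the C1q arrays. The C1q values lay within or just under the untreated range, and the fold change was 0.961 with a 95% interval of 0.860 to 1.07. Htr7, a Gs-coupled receptor, read 285 ± 32.8 on untreated and 269 ± 19.8 on C1q arrays (SD, n = 3 each). The Gq-coupled Htr2a, the cortical target of classical hallucinogens, read 144 ± 15.9 and 140 ± 10.4, and Htr2c read 129 ± 11.6 and 132 ± 5.04 (SD, n = 3 each). These differences were smaller than the spread between arrays of a group.

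The remaining serotonin receptor genes read 50.7 to 110 in untreated neurons. Htr1f, a Gi/o-coupled receptor and the target of a class of migraine drugs, read 53.7, 58.3 and 41.9 on the untreated arrays and 39.4, 52.4 and 38.7 on the C1q arrays. Untreated array 3 and C1q array 2 lay inside the other group's range. Its fold change of 0.884 was the lowest of the 43 genes, with an interval of 0.713 to 1.1 and adjusted p = 1 in limma. This rank did not hold in every alternative. The log2 fold change of Htr1f was -0.18, -0.04 with array weights and -0.10 without untreated array 2, and -0.28 without untreated array 3 or C1q array 2, and with array weights that of Drd1 was lower, at -0.23. Htr1a, the main inhibitory serotonin receptor of cortical pyramidal cells in the adult, read 50.7 ± 0.175 untreated and 49.9 ± 1.44 with C1q (SD, n = 3 each). Htr1d read 94.7 ± 7.70 and 87.0 ± 2.52, and Htr3a, the channel-forming subunit, 95.1 ± 12.5 and 86.7 ± 15.2 (SD, n = 3 each). The Gs-coupled Htr4 and Htr6 read 110 ± 15.4 and 76.3 ± 14.7 untreated and 111 ± 8.90 and 68.7 ± 9.31 after C1q (SD, n = 3 each). In each of these genes the 6 arrays overlapped between groups.

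All 5 dopamine receptor genes had lower means after C1q, and 4 of them still did under either rescaling. Drd1, the Gs-coupled receptor of the D1 class, read 145, 160 and 201 on the untreated arrays and 155, 174 and 160 on the C1q arrays. The C1q arrays lay inside the untreated range, and the fold change of 0.976 (interval 0.819 to 1.16) turned to a log2 fold change of 0.08 when untreated array 3 was left out and was -0.23 with array weights. Drd5, the other receptor of the D1 class, read 83.1, 83.4 and 75.7 untreated and 67.0, 66.0 and 81.7 after C1q. C1q arrays 1 and 2 were below every untreated array and C1q array 3 was not, at a fold change of 0.903 (interval 0.760 to 1.07). The Gi/o-coupled receptors of the D2 class read 127 ± 20.9 and 116 ± 6.34 for Drd2, 55.7 ± 6.23 and 54.4 ± 1.02 for Drd3, and 91.7 ± 24.7 and 85.8 ± 8.10 for Drd4, untreated and after C1q (SD, n = 3 each). Drd4 had the widest spread of the 43 genes over the untreated arrays, with a coefficient of variation of 26.9%, where the median of the 43 was 9.02%.

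Adrb1, the beta-1 adrenergic receptor gene, whose product raises cyclic AMP through Gs, was the receptor gene with the highest fold change. It read 239, 262 and 246 on the untreated arrays and 266, 294 and 294 on the C1q arrays. Every C1q array was above every untreated array, by a margin of 266.4 against 261.9 at the closest. The fold change was 1.13 with an interval of 1.01 to 1.27, an unadjusted p of 0.0366 and an adjusted p of 1 in limma, so it did not pass. Groups did not overlap in this direction for 1.88% of all probe sets. Over 16 alternatives of processing its log2 fold change lay between 0.15 and 0.23 and its adjusted p between 0.227 and 1, with an unadjusted p under 0.05 in 11 of them.

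The other adrenergic receptor genes overlapped between groups. The family had 2 means higher and 4 lower, against 3 and 3 after quantile normalization and 4 and 2 after median centring. Adra2a, the Gi/o-coupled receptor on which clonidine acts, read 257 ± 13.0 untreated and 254 ± 8.26 after C1q, and Adra2c read 140 ± 16 and 128 ± 11.7 (SD, n = 3 each). Of the Gq-coupled receptors, Adra1d read 188 ± 20.9 and 176 ± 1.89 (SD, n = 3 each). Adra1a and Adra1b, at 50.7 ± 1.17 and 45.2 ± 5.57 untreated and 54.4 ± 7.85 and 44.8 ± 7.36 after C1q (SD, n = 3 each), lay below the median of genes restricted to other organs.

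**Figure D3:**
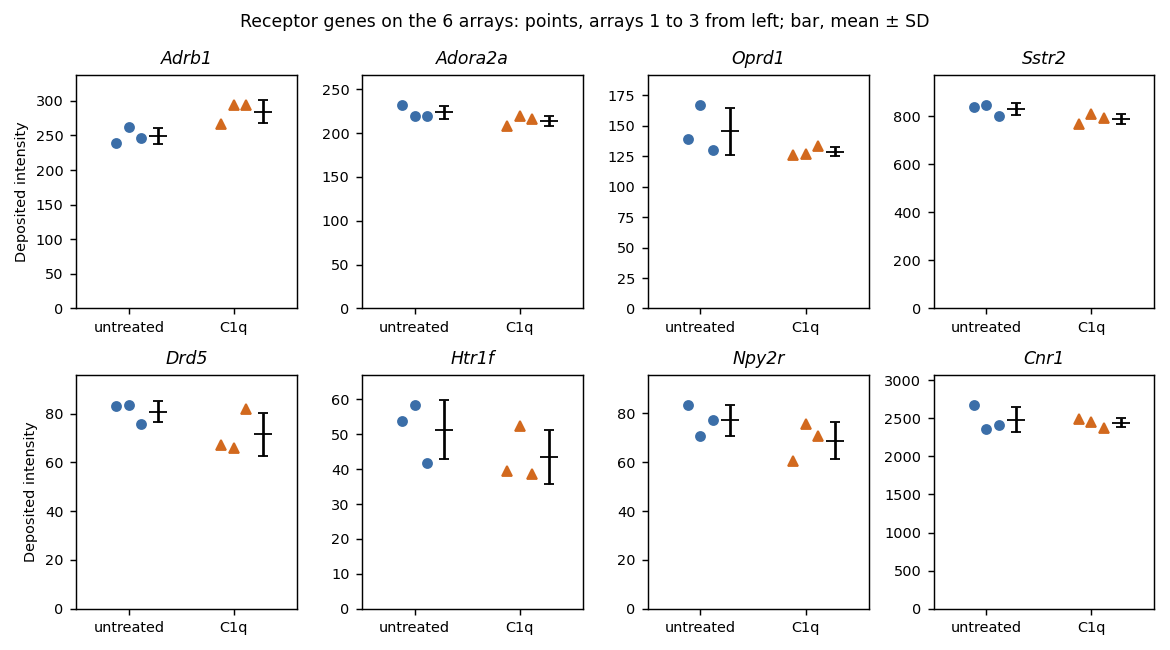
Deposited intensity on each array for 8 receptor genes in untreated (circles) and C1q-treated neurons (triangles), with mean ± SD of 3 arrays beside the points and axes from 0. Adrb1 shows 3 C1q arrays above the 3 untreated ones, Adora2a a separation of 218.8 against 218.6, and the other genes shown overlap.

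All 4 muscarinic acetylcholine receptor genes read above 173 in untreated neurons, the 90th percentile of genes restricted to other organs. Chrm1, the Gq-coupled M1 receptor of cortical pyramidal cells, read 315, 350 and 337 on the untreated arrays and 306, 330 and 328 on the C1q arrays. Only C1q array 1 fell below the untreated range, and the fold change was 0.965 (interval 0.866 to 1.08). Chrm3, also coupled to Gq, read 217 ± 18.7 and 218 ± 12.9 (SD, n = 3 each). The Gi/o-coupled Chrm2 and Chrm4 read 238 ± 36.1 and 206 ± 21.6 untreated and 231 ± 23.7 and 200 ± 3.59 after C1q (SD, n = 3 each). The family had 1 mean higher and 3 lower, also with either rescaling.

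The nicotinic subunit genes had 2 means higher and 2 lower, with log2 fold changes from -0.01 to 0.04, and 4 higher and 0 lower after either rescaling. Chrnb2, the beta subunit that joins alpha-4 in the main high-affinity nicotinic receptor of brain, read 1291, 1156 and 1183 on the untreated arrays and 1208, 1212 and 1207 on the C1q arrays. The C1q arrays sat inside the untreated range, at a fold change of 1.00 (interval 0.923 to 1.08). Chrna7, which forms calcium-permeable receptors of a single subunit type, read 563 ± 10.9 and 562 ± 22.2 (SD, n = 3 each). Chrna4 read 118 ± 9.25 and 121 ± 4.63, and Chrna3, a subunit best known from autonomic ganglia, 136 ± 19.7 and 134 ± 6.54 (SD, n = 3 each).

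Opioid receptor genes had 3 means higher and 1 lower, a balance kept with either rescaling. All are coupled to Gi/o. Oprl1, the nociceptin receptor gene, read 330, 309 and 316 on the untreated arrays and 315, 332 and 313 on the C1q arrays, with a fold change of 1.01 (interval 0.907 to 1.11). Oprm1, the receptor of morphine, read 296 ± 22.3 untreated and 306 ± 19.8 with C1q (SD, n = 3 each). The delta receptor gene Oprd1 read 139, 167 and 130 on the untreated arrays and 126, 127 and 133 on the C1q arrays. Its lower C1q mean went with a high reading on untreated array 2, and the fold change was 0.903 (interval 0.770 to 1.06). The kappa receptor gene Oprk1 lay at 38.8 ± 6.17 and 38.9 ± 6.43 (SD, n = 3 each), below the median of genes restricted to other organs.

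Cnr1, the cannabinoid CB1 receptor gene, whose product sits on axon terminals and holds back transmitter release, read 2669, 2363 and 2406 on the untreated arrays and 2493, 2446 and 2377 on the C1q arrays. The C1q arrays lay inside the untreated range. Its fold change was 0.985 with an interval of 0.909 to 1.07, and the sign of its log2 fold change turned with either rescaling. Adora2a, the Gs-coupled adenosine receptor best known from striatum, read 232, 219 and 220 untreated and 208, 219 and 216 after C1q. Its groups were separated only by 218.8 on the lowest untreated array against 218.6 on the highest C1q array, far less than the spread within either group. The fold change was 0.961 (interval 0.857 to 1.08, unadjusted p = 0.455 in limma), and 5.18% of all probe sets were separated in this direction. Adora1, the Gi/o-coupled adenosine receptor that dampens synaptic release, read 228 ± 2.77 and 225 ± 15.1 (SD, n = 3 each).

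The NPY receptors are coupled to Gi/o. Npy1r read 552, 600 and 585 on the untreated arrays and 584, 590 and 575 on the C1q arrays, all 3 of the latter inside the untreated range, with a fold change of 1.01 (interval 0.923 to 1.1). Npy5r, whose gene lies next to Npy1r in opposite orientation, read 23.9 ± 3.66 and 25.3 ± 2.77 (SD, n = 3 each). Npy2r, the presynaptic receptor, read 83.3, 70.8 and 77.2 untreated and 60.4, 75.5 and 70.8 after C1q, so that its groups overlapped (fold change 0.911, interval 0.763 to 1.09). Npy2r was the only receptor gene with 2 probe sets, and both carried the same values on every array, so they do not count as separate measurements. The family had 2 means higher and 1 lower, also with either rescaling.

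All 4 somatostatin receptor genes, likewise coupled to Gi/o, had lower means after C1q, a count of 4 with median centring and 2 with quantile normalization. Sstr2 read 839, 847 and 801 on the untreated arrays and 768, 808 and 791 on the C1q arrays. C1q array 2 exceeded untreated array 3 and the other C1q arrays lay below all untreated arrays. The fold change was 0.953 with an interval of 0.880 to 1.03 and an adjusted p of 1 in limma. Sstr1 read 136 ± 15.1 and 132 ± 8.89, Sstr3, a receptor of primary cilia, 115 ± 20.4 and 108 ± 6.39, and Sstr4 91.8 ± 4.26 and 89.4 ± 6.17, untreated and after C1q (SD, n = 3 each).

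Grouped by coupling, 5 means were higher and 19 lower of 24 Gi/o-coupled receptor genes, 2 and 5 of 7 Gs-coupled, 3 and 4 of 7 Gq-coupled and 2 and 3 of 5 channel subunit genes. With quantile normalization these became 11 and 13, 2 and 5, 5 and 2, and 4 and 1, and with median centring 10 and 14, 2 and 5, 4 and 3, and 4 and 1. The median log2 fold change was -0.04 for Gi/o-coupled, -0.06 for Gs-coupled and -0.01 for Gq-coupled genes, beside -0.02 for all genes.

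The ligands of these receptors and the enzymes that make them showed no called gene among 17 matched, with 4 means higher and 13 lower and a list median of -0.04 (log2). Either rescaling gave 6 higher and 11 lower. Untreated and C1q arrays were fully separated for 5 of the 17, all with lower C1q values. In this direction 5.18% of all probe sets and 677 of the 14506 genes were separated. Separation was counted on the deposited values, without rescaling. The lowest untreated and highest C1q values were nearly equal for Npy (1714 and 1713), Pnoc (187 and 186) and Pomc (both 101 as rounded). They lay further apart for Napepld (202 and 190) and Dbh (58.6 and 54.7). Sst, which encodes the somatostatin precursor, read 5112 ± 156 and 4972 ± 266 (SD, n = 3 each), untreated and C1q-treated. Npy read 1844, 1714 and 1841 untreated and 1640, 1671 and 1713 after C1q. All C1q arrays were below the untreated ones, at a fold change of 0.932 with unadjusted p = 0.0548 and adjusted p = 1 in limma. Napepld, an enzyme of endocannabinoid-like lipid synthesis, read 202, 208 and 210 untreated and 190, 183 and 175 after C1q, also without overlap (fold change 0.892, unadjusted p = 0.0588 in limma). Dbh, the noradrenaline-forming enzyme, read 58.6, 67.4 and 62.5 untreated and 54.7, 45.8 and 40.2 after C1q, with an unadjusted p of 0.0221 and an adjusted p of 1 in limma, and lay below the median of genes restricted to other organs. The opioid precursor genes Pomc and Pnoc had fold changes of 0.924 and 0.938. Of the enzymes that start monoamine synthesis, Tph2 read 41.6 ± 6.17 and Th 93.1 ± 8.25 in untreated neurons (SD, n = 3 each). Slc6a4, the serotonin transporter gene, read 332, 357 and 335 untreated and 278, 280 and 284 after C1q, and did not pass (unadjusted p = 0.00221 and fold change 0.831 in limma).

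Other receptors of the same families, 20 of 23 matched, had 5 means higher and 15 lower, or 9 to 11 with either rescaling, and none was called. Groups were separated for 1 gene with a higher mean, Htr2b at a fold change of 1.08, and 1 with a lower mean, Chrna1. Htr2b averaged 24.0 untreated and 27.1 after C1q (unadjusted p = 0.378 in limma), below the median of genes restricted to other organs. Chrna1, the alpha subunit of the muscle receptor, read 80.2, 80.1 and 72.5 untreated and 58.4, 62.8 and 68.3 after C1q. Its groups did not overlap, and it had a fold change of 0.845 with unadjusted p = 0.0467 and adjusted p = 1 in limma. Fold changes were 0.895 for Htr3b and 0.911 for Cnr2. Chrna5, an accessory nicotinic subunit gene, read 293 ± 42.3 and 271 ± 22.3 (SD, n = 3 each).

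The signalling partners showed no called gene either. G protein subunit genes, 17 of 17 in the brightest 60%, had 5 means higher and 12 lower. Quantile normalization gave 8 and 9, and median centring 9 and 8. Gng3, a neuronal gamma subunit, had a fold change of 0.956, Gnai3 0.951 and Gnb5 0.958, and Gnb5 was the only one of the 17 whose groups did not overlap, with lower C1q values. Adenylyl cyclase, protein kinase A and phospholipase C genes had 6 higher and 9 lower of 15, or 7 to 8 and 10 to 5 with the rescalings in the same order, with fold changes of 0.946 for the catalytic subunit gene Prkacb, 0.949 for Adcy6 and 0.968 for Prkar1a. Receptor kinase, arrestin and RGS genes, which end receptor signalling, had 6 higher and 11 lower of 17, or 9 to 8 with either rescaling. Fold changes were 0.897 for Rgs20, 0.949 for Grk4 and 0.961 for Arrb1. The C1q arrays of Rgs20 all lay below the untreated ones, but narrowly, with both nearest values at 121 as rounded. The phosphodiesterase genes, which degrade cyclic nucleotides, had 4 higher and 6 lower of 10, or 6 to 4 and 8 to 2, with fold changes of 1.07 for Pde7b, 0.957 for Pde1a and 0.983 for Pde4d.

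The GIRK channel genes, the potassium channels that Gi/o-coupled receptors open, had 3 means higher and 1 lower, or 4 to 0 with either rescaling. Kcnj3 read 1148, 1022 and 1171 on the untreated arrays and 1102, 1196 and 1156 on the C1q arrays. Its groups overlapped, as did those of Kcnj6 at 350 ± 26.0 and 367 ± 13.2 and of Kcnj5 at 58.8 ± 5.60 and 64.4 ± 4.25 (SD, n = 3 each). Their fold changes were 1.03, 1.05 and 1.08.

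**Figure D4:**
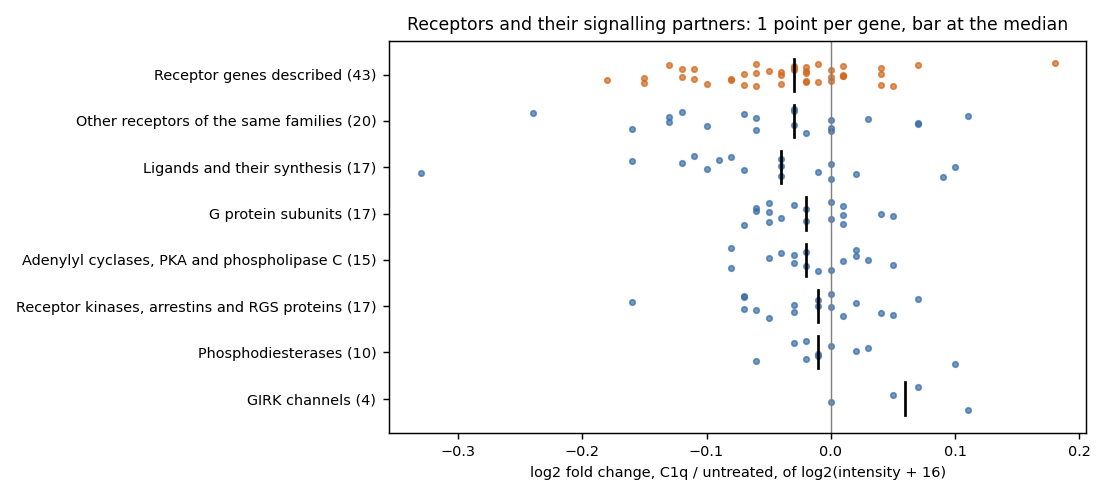
Log2 fold change (C1q over untreated) of the 43 receptor genes and of 7 lists of related genes, 1 point per gene, with a bar at each median and the number of genes in brackets. The points of the receptor genes lie between -0.18 and 0.18, and the list medians lie between -0.04 and 0.06.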

How the data were processed

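The data are deposited intensities on a linear scale, 1 per probe set and array; how the authors summarised and normalized these intensities is not given in the sources used here. RNA was biotin-labelled as cRNA by the Affymetrix protocol, per the labels' protocols. Gene names came from the platform annotation and were checked through gene identifiers against RefSeq GRCr8. Of 29215 probe sets, 15310 named exactly 1 gene. Values were analysed as log2(intensity + 16) without a filter, so that every receptor gene was tested. C1q and untreated arrays were compared in limma 3.58.1 (R 4.3.3) by lmFit and trended eBayes, with Benjamini-Hochberg adjustment over all 29215 probe sets and calls at an adjusted p under 0.05. The number of arrays limits the precision.

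Among the receptor genes, per-array values are given for those whose groups did not overlap, the probe set of highest mean intensity in each family, the 6 of smallest unadjusted p and the extreme fold changes. From each list of related genes up to 3 of smallest p are named, beside some chosen after their values were seen (Sst, Tph2, Th, Pomc, Pnoc, Htr2b, Chrna5). Slc6a4 was chosen by name. The receptor genes and lists were chosen with earlier results of these data known, and the promoter motifs and the 90th percentile of other organs' genes after values were seen. Alternatives covered quantile normalization, median centring, the brightest 60%, pseudocounts of 1 and 64, no trend, robust variance, a block for the replicate number, array weights, each array left out in turn, and averaging the probe sets of a gene.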

Additional observations from a re-analysis of the deposited data

How the results depend on the processing

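No receptor gene was called under any of the 16 alternatives. The brightest 60% tested only 29 of the 43, and averaging probe sets could change no receptor gene, since only Npy2r had 2 and their values were identical. The number of receptor genes with a higher mean moved from 12 to 22 with quantile normalization and 20 with median centring, and lay between 9 and 15 when each array was left out; the median log2 fold change lay between -0.04 and 0.00 over all alternatives. Over all probe sets, array weights called 1 higher and 10 lower and the brightest 60% called 0 lower, against 0 and 1. Leaving out each array gave 0 to 3 higher and 1 to 2 lower, with the 3 higher and 2 lower called without untreated array 2; none of the calls with array weights or without that array named exactly 1 gene. With the replicate number as a block 0 were higher and 2 lower. The numbers were not taken to pair the arrays, because the labels do not say that they mark a shared culture. Deviations of same-numbered arrays correlated at 0.00975, -0.308 and -0.0694, and those of differently numbered arrays at -0.247 to 0.295. Deviations cancel out within a group, which ties these correlations to one another, so they cannot show whether cultures were shared. Signs were the same in every alternative for 14 of the 43 genes, 2 higher and 12 lower. Among genes given per array the log2 fold change turned for Cnr1 (0.01 with array weights or quantile normalization, 0.00 with median centring, 0.03 without untreated array 1), Npy1r (-0.00 with array weights, -0.02 without untreated array 1), Drd1 (0.08 without untreated array 3, -0.13 to 0.08 over all arrays left out in turn, and -0.23 with array weights), Chrnb2 (-0.03 to 0.05 leaving out arrays in turn) and Oprl1 (-0.02 to 0.03 likewise). Htr1f kept its sign, between -0.28 and -0.04. The ranges for Cnr1 and Npy1r were -0.06 to 0.03 and -0.02 to 0.04. The cause was not tested. How far each signal stood above background is unknown.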

Other observations

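Untreated array 2 was the highest of the untreated arrays for 20 of the 43 receptor genes and the lowest for 19, against 15 and 13 for untreated array 1 and 8 and 11 for untreated array 3. The same was not counted over all probe sets, so this is not shown to be particular to the receptor genes. The array weights estimated by limma over all probe sets were 0.437, 0.391 and 4.40 for untreated arrays 1 to 3 and 0.900 to 1.58 for the C1q arrays. The median coefficient of variation over the untreated arrays was 9.02% for the 43 receptor genes, beside 8.79% over all probe sets. It was 8.62% for the 29 receptor genes in the brightest 60% and 11.8% for the other 14. All probe sets were not split by brightness in this way.

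The 1 probe set called over the whole table named no gene. It averaged 44.1 in untreated and 0.025 in C1q-treated neurons, with an adjusted p of 0.00113 in limma. The C1q mean lay at the floor of the intensity scale, where the dimmest receptor gene, Npy5r, read 23.9 untreated. Both means were below 94.4, where the brightest 60% of probe sets began, so that alternative did not test it.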
